A study of Mus musculus with 6 samples.

Results

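The genes described here are 9 controllers of programmed cell death. They comprise the survival genes Bcl2, Bcl2l1 and Mcl1, the death-promoting genes Bcl2l11, Bid and Bad, and the caspase-restraining genes Xiap, Birc2 and Birc3. They were chosen by name, as all probe sets annotated to one of these symbols alone, which gave 35 of the 45037 probe sets tested, and 9 of the 18193 genes measured. All 9 genes had at least 1 probe set. Bcl2 and Xiap were included because both have been reported as targets of the miR-200 family.

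The RNA was from 344SQ, a line of mouse lung adenocarcinoma cells kept as a mass population from a subcutaneous tumour of 1 animal with the genotype p53R172H∆g/+ K-rasLA1/+. Every culture therefore shares the mutant p53 allele and the activated K-ras allele. The miR-200 group held 3 cultures transduced with a lentivirus carrying the miR-200b-200a-429 cluster, and the control group held 3 cultures transduced with the control vector. Both were kept as GFP-positive pools under puromycin, with 1 array per culture, named A, B and C. Separate transductions for the cultures of a group are not mentioned in the labels. The p-values therefore rest on culture-to-culture spread alone, and a lasting difference between the pools cannot be told apart from an effect of the microRNAs.

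In the mitochondrial pathway of apoptosis, survival proteins such as Bcl-2, Bcl-xL and Mcl-1 bind and hold back the pore formers and their activators. BH3-only proteins, so called for the short helix they share with the rest of the family, either occupy the survival proteins or engage the pore formers directly. Once the outer mitochondrial membrane is breached, caspases are switched on, and the inhibitor of apoptosis proteins act at and above that step: XIAP blocks caspases by direct binding, whereas the products of Birc2 and Birc3 are ubiquitin ligases of the tumour necrosis factor receptor and NF-kB pathways. In lung adenocarcinoma Mcl-1 and Bcl-xL are well known survival factors, and Bim, the product of Bcl2l11, is known for mediating the response to inhibitors of the Ras-MAPK pathway.

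The microRNAs that the virus carried are shown because their seeds (bases 2 to 8, in capitals) decide which messages they can pair with. The mature sequences are from RefSeq (GRCm38.p6), are written 5′ to 3′, and lie on the minus strand of chromosome 4.
miR-200b-3p (chr4:156055685-156055706): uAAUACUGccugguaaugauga
miR-429-3p (chr4:156053916-156053937): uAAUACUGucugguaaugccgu
miR-200a-3p (chr4:156054911-156054932): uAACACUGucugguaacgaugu
The seeds of miR-200b-3p and miR-429-3p are identical. The seed of miR-200a-3p differs from them by U4C, counted from 1 at the 5′ end with the base of miR-200b-3p given before the position. The microRNAs were not measured on these arrays, and sites in the messages of the 9 genes were not searched here.

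No member passed the test. At an adjusted p under 0.05 (limma, miR-200 against control vector, adjusted over all 45037 probe sets) 0 of the 35 probe sets passed, where 0.744% of all probe sets did, 0.258% higher and 0.486% lower. The same held for the 9 genes, each represented by its brightest probe set, against 0.945% of all genes, 0.275% higher and 0.671% lower. Without adjustment, 7 member probe sets had a p under 0.05 in the same limma fit, 20% of the 35 against 14.1% of all probe sets. Of the 7, 6 were higher in miR-200 cells, where 7.18% of all probe sets were, and 1 was lower, where 6.93% were. The 3 miR-200 values lay wholly on one side of the 3 control values for 9 probe sets, 25.7% against 21.3% on the whole array. Of these, 7 had all miR-200 values above, where the whole array had 11.6%, and 2 had them below, where it had 9.76%. The median log2 difference over the 35 probe sets was 0.10, beside 0.027 over all probe sets. Over the 9 genes it was 0.17, beside 0.0014 over all genes.

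The size of change that the comparison could call was large. With the standard errors of the 9 representing probe sets, a log2 difference of between 1.02 for Mcl1 and 3.07 for Birc3 would have been needed to pass. These errors rest on 3 arrays per group and include the spread from the arrays miR-200 A and control B, described below. Values below are log2 signals after quantile normalization, differences are taken as miR-200 minus control, and standard errors (SE) and 95% intervals are those of limma. A value of 5.28, the highest that probe sets for the bacterial trp control gave, serves as a gauge of background. On 32 of the 35 member probe sets both group means lay above it, and on 3 both lay below it.

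The arrays miR-200 A and control B each differed widely from the other 2 arrays of their group. Over 9 genes of dividing cells the median was 8.17, 12.15 and 12.31 on miR-200 A, B and C, against 11.77, 8.08 and 11.72 on control A, B and C. The 6 epithelial markers checked the cell type, with medians between 13.11 and 13.34 on the 6 arrays. Of these, Cldn7 was higher in miR-200 cells, at 9.95 against 5.71 in control cells (limma, adjusted p = 0.0162), Epcam had all miR-200 values above and Krt19 all below without passing, and Cdh1, Krt8 and Krt18 overlapped. Of 5 lung markers, Sftpb and Aqp5 were lower in miR-200 cells, whereas Sftpc and Scgb1a1 lay under the gauge in both groups. Of 10 blood and stromal markers, 5 lay under the gauge in both groups, and the log2 summed signal of the list ranged between 8.57 and 9.65 in miR-200 cells and between 8.50 and 9.61 in control cells. Its highest sums, 9.65 and 9.61, were on miR-200 A and control B. By median, the list did not set these arrays apart. The median was 5.12, 5.21 and 5.25 on miR-200 A, B and C, against 4.74, 4.88 and 5.31 on control A, B and C. No marker was at 0 on all arrays. Kdr, Pdgfra, Pdgfrb, Lyz2 and Pecam1 were those under the gauge in both groups. Cdh5, Ptprc, Col1a1 and the macrophage marker Cd68 lay above it in both groups. Cd68 was highest on miR-200 A, at 8.98, and control B, at 8.87, whereas Lyz2 read 0 and 0.28 on these arrays. Differences of the 9 genes, and of some others, are therefore also given without both arrays, which leaves 2 arrays per group. Further on, a fit with a term for both arrays is given. The arrays were picked by their expression values, so SEs and p-values from fits that omit or model them are too small.

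**Figure D1:**
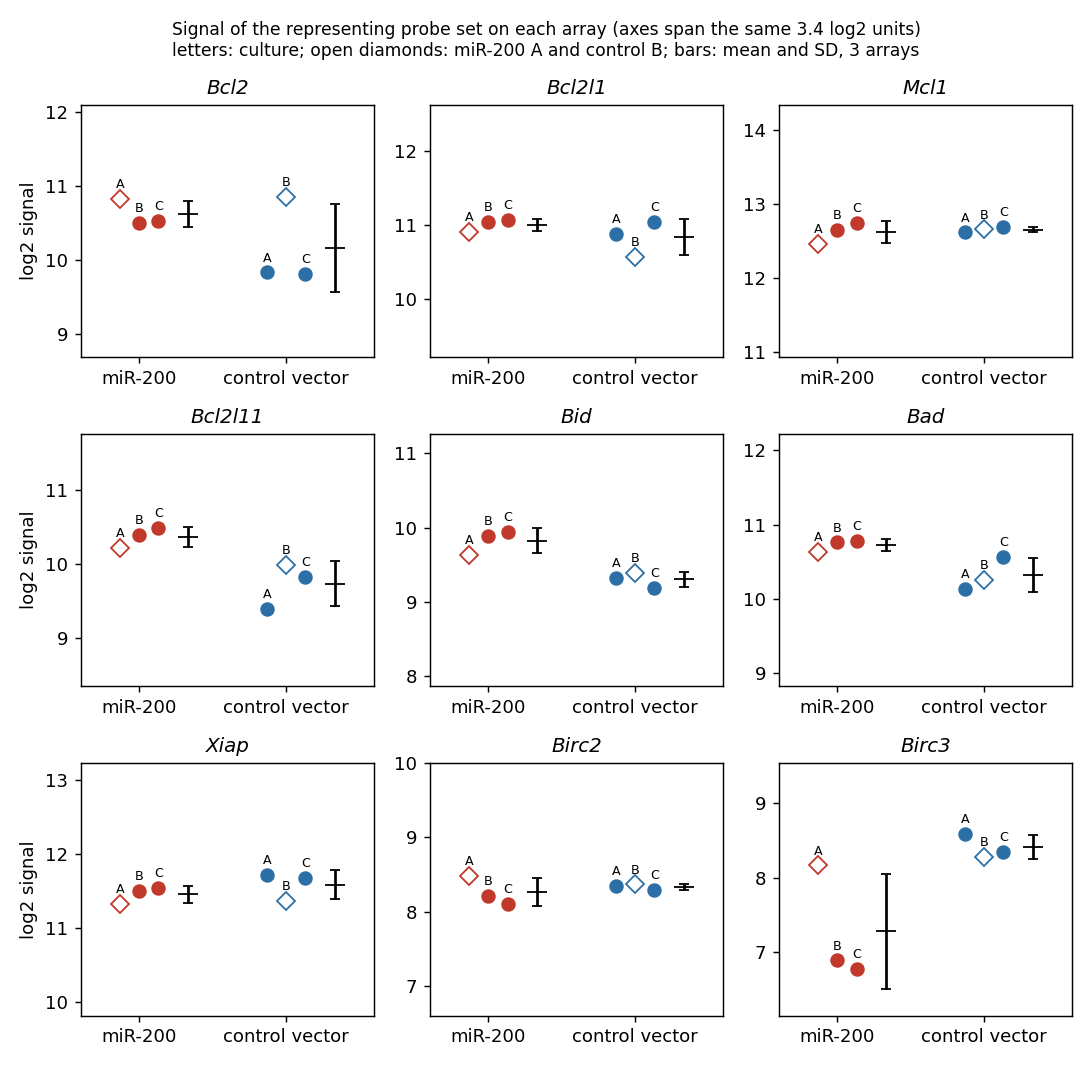
Log2 signal of the representing probe set of each of the 9 genes (vertical axis) on the 3 miR-200 arrays (left, red) and the 3 control vector arrays (right, blue), with mean and SD beside each group. Open diamonds mark miR-200 A and control B; the groups do not overlap for Bcl2l11, Bid and Bad, where miR-200 values are above, and for Birc3, where they are below.

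Bcl2, the founding survival gene of the family and a reported target, was not lower in miR-200 cells on its brightest probe set. Its signal was 10.83, 10.50 and 10.53 on miR-200 A, B and C, against 9.83, 10.85 and 9.81 on control A, B and C. The groups overlapped through control B, which was the highest of the 6 arrays, while control A and control C were the lowest. The difference was 0.45 ± 0.32 (SE), with an interval between -0.35 and 1.26 (adjusted p = 0.598). Without miR-200 A and control B it was 0.69 ± 0.09 and did not pass (adjusted p = 0.110).

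The other 4 probe sets of Bcl2 did not give one answer. Probe set 1440770_at read 6.34, 6.99 and 7.38 on miR-200 A, B and C, against 5.95, 5.86 and 5.41 on control A, B and C. All miR-200 values were above all control values, and the difference of 1.16 ± 0.31 was the largest positive one among the 35 probe sets (adjusted p = 0.208). The remaining 3 had differences of 0.20, 0.097 and -0.14, with groups that overlapped. The gap between 1440770_at and the mean of the other 4 Bcl2 probe sets was -1.33 ± 0.61 in miR-200 cells and -2.34 ± 0.33 in control cells (SD, n = 3 each). That probe set was chosen after its values were seen. An exact permutation test of the change gave p = 0.2 (two-sided), and with 3 arrays per group such a test cannot give less than 0.1. The mean over all 5 probe sets differed by 0.35 ± 0.17 (SE, limma, adjusted p = 0.405).

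Bcl2l1 encodes Bcl-xL, a survival protein of the mitochondrial membrane. It read 10.91, 11.04 and 11.06 on miR-200 A, B and C, against 10.88, 10.57 and 11.04 on control A, B and C. Control B was the lowest array, and the groups overlapped. The difference was 0.17 ± 0.17 (interval -0.24 to 0.58, adjusted p = 0.697), or 0.087 without miR-200 A and control B. All 4 probe sets of the gene had differences above 0, between 0.10 and 0.78, and the largest came from 1426050_at, which was under the gauge in both groups.

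Mcl1, which encodes a short-lived survival protein, was level on its brightest probe set. The signal was 12.46, 12.65 and 12.75 on miR-200 A, B and C, against 12.62, 12.66 and 12.68 on control A, B and C. Its difference of -0.03 ± 0.13 had an interval between -0.36 and 0.30 (adjusted p = 0.946). Each of the other 5 probe sets of Mcl1 also had a difference below 0, between -0.47 and -0.13, and none passed. On 1416881_at the miR-200 values all lay below the control values, by little. On the dimmest of them, 1456381_x_at, the values were 10.76, 10.05 and 10.02 on miR-200 A, B and C, against 10.68, 10.86 and 10.70 on control A, B and C. There miR-200 A sat among the control arrays while miR-200 B and C were lower, and without miR-200 A and control B the difference was -0.65 ± 0.09 (adjusted p = 0.114). Probe sets whose names end in _x_at, as 3 of the 6 for Mcl1 do, hold probes that can also match other sequences.

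**Figure D2:**
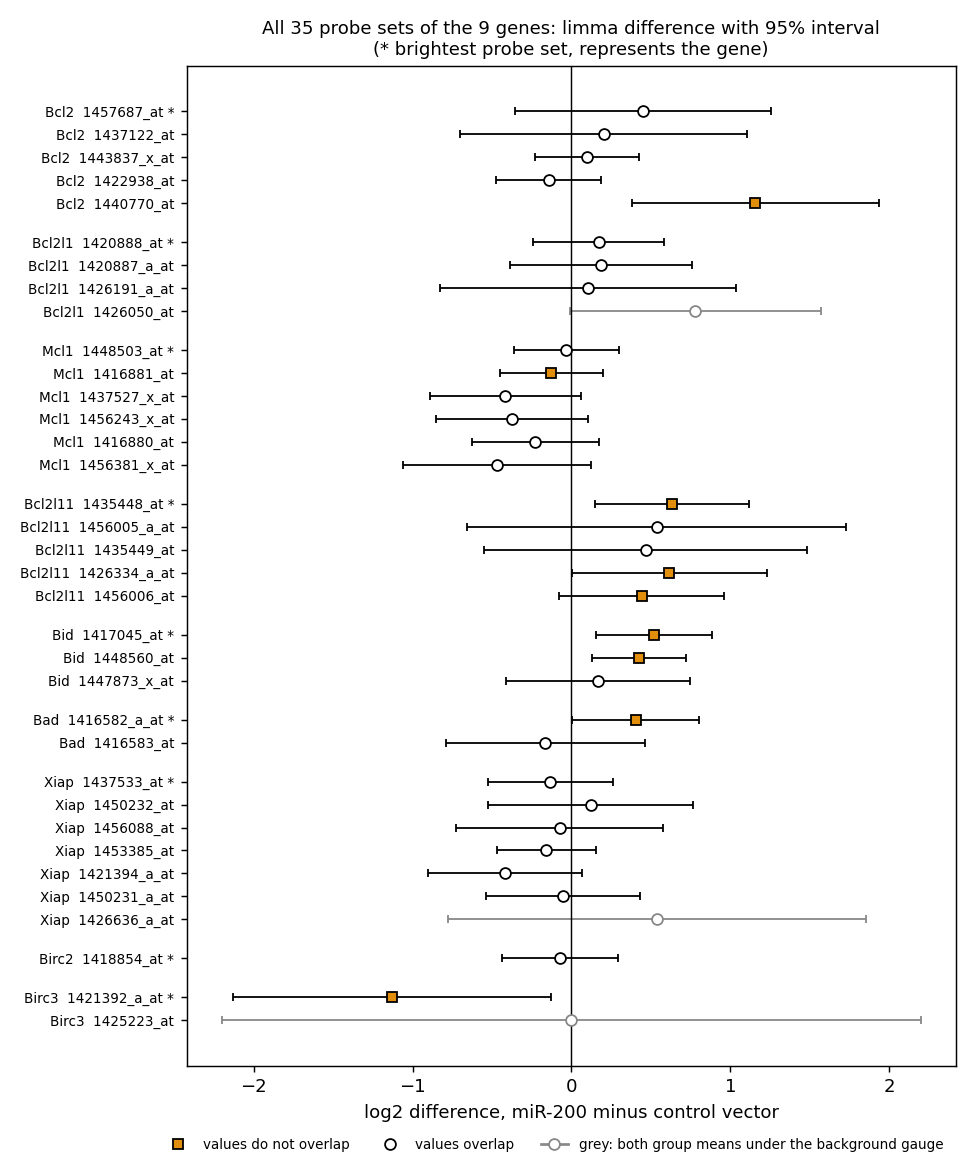
Log2 difference (horizontal axis, miR-200 minus control vector) with the 95% interval of the limma fit for each of the 35 probe sets of the 9 genes. Filled squares mark the 9 probe sets whose groups do not overlap and grey the 3 under the gauge in both groups; the 5 probe sets of Bcl2l11 all lie above 0 and the 6 of Mcl1 all lie below it, and no probe set passed the test over the whole array.

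On their representing probe sets, the 3 BH3-only genes among the 9 had all miR-200 values above the control values. This was so for 3 of 3 genes, where the share over all genes was 11.4%, and their median difference was 0.52. It was so for 6 of their 10 probe sets, where the share over all probe sets was 11.6%, but 0 passed. Probe sets of the same gene are not independent readings. For 10 other BH3-only or BH3-like genes the groups all overlapped. Of their differences, 4 were above 0 and 6 below, with a median of -0.099. For the survival genes the representing groups overlapped in all 3 cases, where 23.5% of all genes did not overlap, and the median difference was 0.17. Of the inhibitors of apoptosis, 1 of 3 had all miR-200 values below, where 12.1% of all genes did, and their median was -0.13. The 9 genes were picked with earlier results of these arrays known, so these counts are a description.

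Bcl2l11 encodes Bim, which binds all the survival proteins and can activate the pore formers directly. Its signal was 10.22, 10.40 and 10.49 on miR-200 A, B and C, against 9.40, 9.98 and 9.82 on control A, B and C. The groups did not overlap, and the nearest values were miR-200 A and control B. The difference of 0.63 ± 0.20 (interval 0.15 to 1.12) is 1.55-fold higher in miR-200 cells and did not pass (adjusted p = 0.253). Without miR-200 A and control B it was 0.83 ± 0.19 (adjusted p = 0.172).

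The other 4 Bcl2l11 probe sets had differences between 0.44 and 0.61. They shared a feature that the brightest one lacked, which was a high value on miR-200 A. Probe set 1456005_a_at read 10.78, 9.40 and 9.34 on miR-200 A, B and C, against 8.96, 9.88 and 9.08 on control A, B and C. Its highest arrays were miR-200 A and control B, and its difference of 0.54 ± 0.48 was 0.07 without miR-200 A and 0.35 ± 0.11 without both. Probe set 1426334_a_at read 8.14, 7.31 and 7.45 on miR-200 A, B and C, against 7.04, 7.04 and 6.97 on control A, B and C, so the control values were close together and all lower. Its difference was 0.61 ± 0.25 with all arrays and 0.37 ± 0.11 without both (adjusted p = 0.354 and 0.219). A difference above 0 was thus measured on all 5 probe sets, though its size depended on miR-200 A for the 4 dimmer ones. Without that array 1456005_a_at, 1435449_at, 1426334_a_at and 1456006_at differed by 0.07, 0.05, 0.36 and 0.26, and the brightest by 0.71.

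Bim is known to be induced by FOXO transcription factors, and the window before an annotated start of Bcl2l11 is shown because it holds their core motif. It is chr2:128125788-128126037 on the plus strand (GRCm38.p6, RefSeq), the 250 bases before the start, with the motif GTAAACA in capitals, 227 bases before that start.
Bcl2l11: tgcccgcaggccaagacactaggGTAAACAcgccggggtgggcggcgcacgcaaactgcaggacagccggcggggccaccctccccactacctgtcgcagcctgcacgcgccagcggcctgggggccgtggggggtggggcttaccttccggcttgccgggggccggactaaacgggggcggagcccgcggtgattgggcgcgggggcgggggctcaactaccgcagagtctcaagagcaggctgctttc
Among 32851 windows of this length before annotated starts, 3.17% held GTAAACA on either strand, and of the 16 windows of the 9 genes 1 did. The E-box CACCTG, the core of sites bound by the miR-200 targets Zeb1 and Zeb2, was in 17.2% of all windows and in 1 of the 16, before a start of Bad. The matches were in different windows and do not overlap. The window before the other annotated start of Bcl2l11 held neither motif. Foxo3, a FOXO factor, read 9.09, 8.51 and 8.26 on miR-200 A, B and C, against 9.40, 9.02 and 9.10 on control A, B and C. Its difference of -0.55 ± 0.26 did not pass (adjusted p = 0.411). A link of the motif or of Foxo3 to the values of Bcl2l11 was not tested.

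Bid links death receptors to mitochondria, since caspase-8 cuts it into an active form. It read 9.63, 9.89 and 9.94 on miR-200 A, B and C, against 9.32, 9.39 and 9.19 on control A, B and C. The groups did not overlap, and the spread within each (SD 0.17 and 0.10) was smaller than the difference of 0.52 ± 0.15 (interval 0.15 to 0.88), which is 1.43-fold higher and did not pass (adjusted p = 0.224). Probe set 1448560_at of Bid was tighter still, with 8.54, 8.61 and 8.66 on miR-200 A, B and C, against 8.16, 8.25 and 8.12 on control A, B and C. Its difference was 0.43 ± 0.12 (adjusted p = 0.220). The third, 1447873_x_at, overlapped and differed by 0.17 ± 0.23. Without miR-200 A and control B the differences of the same probe sets were 0.66, 0.49 and 0.11, and none passed.

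Bad, a BH3-only protein that survival signalling inactivates by phosphorylation, gave split probe sets. The brighter one read 10.63, 10.76 and 10.78 on miR-200 A, B and C, against 10.13, 10.26 and 10.57 on control A, B and C. All miR-200 values were above, with control C close to miR-200 A. The difference was 0.40 ± 0.16 (interval 0.0035 to 0.80, adjusted p = 0.351), or 0.42 without miR-200 A and control B. The dimmer probe set 1416583_at overlapped and differed by -0.16 ± 0.25. The mean of both differed by 0.12 ± 0.18 (adjusted p = 0.811).

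Xiap, the other reported target and a direct caspase inhibitor, was read by 7 probe sets, and none had groups that did not overlap. The brightest gave 11.32, 11.50 and 11.54 on miR-200 A, B and C, against 11.72, 11.36 and 11.68 on control A, B and C. The lowest arrays were miR-200 A and control B, and miR-200 B and C lay between control B and the other control arrays. The difference was -0.13 ± 0.16 (interval -0.52 to 0.26, adjusted p = 0.756), or -0.18 without miR-200 A and control B. Over the 7 probe sets 5 differences were below 0 and 2 above, between -0.42 and 0.54. The most negative, from 1421394_a_at, came from signals near the gauge, at 5.40, 5.37 and 5.28 on miR-200 A, B and C, against 5.97, 5.40 and 5.94 on control A, B and C. Without miR-200 A and control B it was -0.63 ± 0.10 (adjusted p = 0.123). The most positive, from 1426636_a_at, lay under the gauge in both groups.

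Birc2 and Birc3 encode cIAP1 and cIAP2, closely related ubiquitin ligases, and are neighbours on chromosome 9. Birc2 was level, at 8.48, 8.21 and 8.10 on miR-200 A, B and C, against 8.35, 8.37 and 8.29 on control A, B and C. Its single probe set differed by -0.07 ± 0.15 (interval -0.44 to 0.29, adjusted p = 0.871), or by -0.16 without miR-200 A and control B.

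Birc3 had the largest difference of the 9 genes. It read 8.16, 6.88 and 6.77 on miR-200 A, B and C, against 8.59, 8.28 and 8.35 on control A, B and C. All miR-200 values were below all control values, but miR-200 A was close to control B, while miR-200 B and C lay far lower. The difference was -1.13 ± 0.40, or 2.19-fold lower, with an interval between -2.13 and -0.13 (adjusted p = 0.303). Without miR-200 A it was -1.58 ± 0.15 and passed (adjusted p = 0.0459), as did 0.728% of all probe sets in that fit. Without both arrays it was -1.64 ± 0.14 and did not pass (adjusted p = 0.0767). The second probe set of Birc3, 1425223_at, was under the gauge in both groups and differed by -0.0018 ± 0.88.

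The change of Birc3 relative to its neighbour Birc2 was also tested, a pair chosen with the values known. The gap between their log2 signals was -0.99 ± 0.59 in miR-200 cells and 0.07 ± 0.17 in control cells (SD, n = 3 each). The change of -1.06 gave p = 0.1 in an exact permutation test (two-sided). With 3 arrays per group such a test cannot give less, so it cannot decide whether Birc3 changed relative to Birc2. Another such test, of the gap between Bcl2l11 and Bcl2 and likewise chosen with values known, gave a change of 0.18 (exact permutation p = 0.7), and none of the 3 could pass adjustment.

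**Figure D3:**
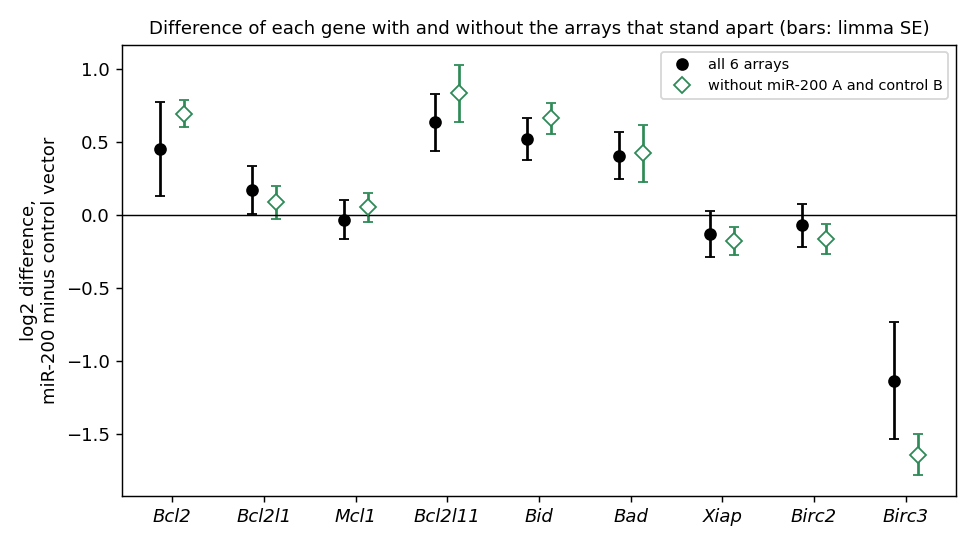
Log2 difference (vertical axis, miR-200 minus control vector) of the 9 genes with all 6 arrays (black circles) and without miR-200 A and control B (green open diamonds). Bars are SEs of the limma fits, and those without both arrays are too small, because the arrays were picked by their values. Bcl2 stands at 0.45 and 0.69, and Birc3 at -1.13 and -1.64; Mcl1 changes sign near 0.

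A fit with a term for miR-200 A and control B, restricted to the brighter 60% of probe sets, kept 30 of the member probe sets and called 5 of them, all higher in miR-200 cells. That is 16.7%, where 17% of all probe sets passed in the same fit and 8.03% passed as higher, so the share of the members was near that of the array in either direction together. The 5 were both _at probe sets of Bid named above (adjusted p = 0.0387 and 0.0364), 1440770_at of Bcl2 (0.0314), and 1456005_a_at and 1456006_at of Bcl2l11 (0.0479 and 0.0395). Of the 9 representing probe sets, only that of Bid passed in this fit, against 17.7% of all genes. The choice of those arrays came from their expression values, which makes the p-values of this fit too small.

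By Pearson correlation over the 6 arrays, among 13690 other genes above the gauge in at least 1 group, the patterns most like Bcl2 were those of Rae1 (0.993), Defb45 (0.991) and Nab1 (0.988). Most like Xiap were Matn3 (0.999), Sh3bp5l (0.998) and Ncoa2 (0.997), and most like Birc3 were Arhgef11 (0.997), Clec7a (0.997) and Eps8l3 (0.996). With 6 arrays that share the contrast of the groups and the shift of miR-200 A and control B, and so many candidates, values this high are a description. None of the 9 genes so named passed the test (limma, adjusted p between 0.237 and 0.754).

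The rest of the apoptosis machinery did not pass either. Of 76 further pathway genes 64 had a probe set of their own, and the other 12 were not analysed here. At an adjusted p under 0.05, 0 of the 64 passed (limma). Without adjustment, 2 were higher (6.35% of all genes) and 2 lower (8.47%), or 4 of 64 where 14.8% of all genes had a p under 0.05. The median log2 difference of the 64 was -0.0084, and for 10 of them, 15.6% against 23.5% of all genes, the groups did not overlap.

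**Figure D4:**
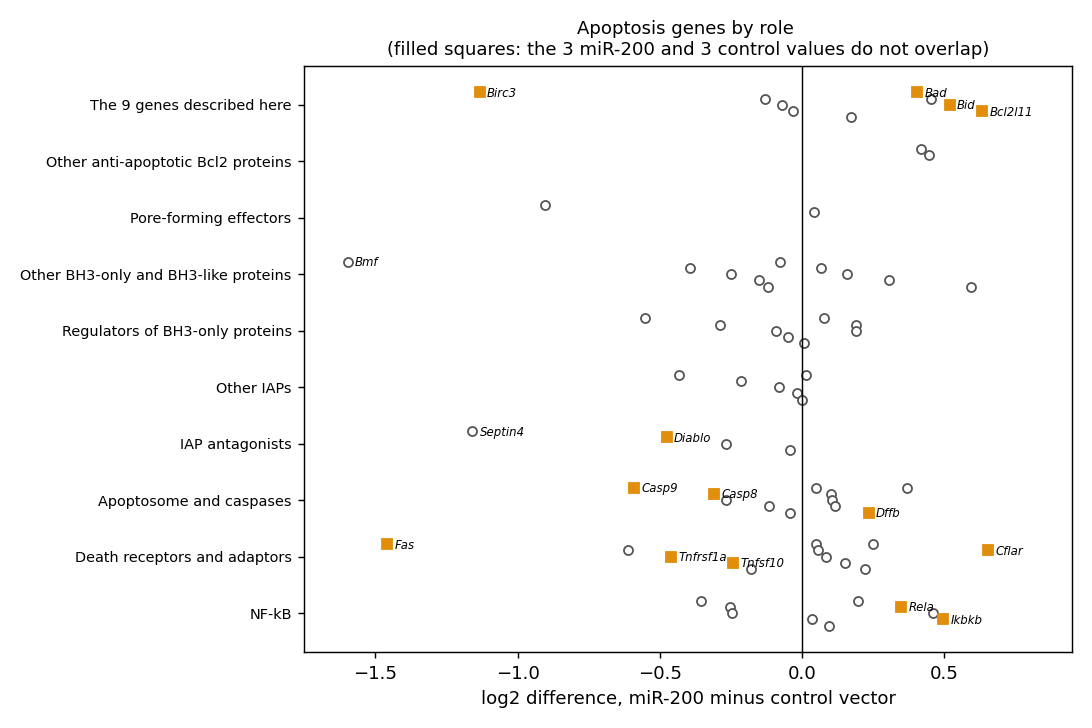
Log2 difference (horizontal axis, miR-200 minus control vector) of the 9 genes (top) and of 64 further apoptosis genes by role. Filled squares mark genes whose groups do not overlap; Fas, at -1.46, and Bmf, at -1.60, lie farthest below 0, and no gene passed the test over the whole array.

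Upstream of Bid, 12 death receptor and adaptor genes were measured. Of their differences, 7 were above 0 and 5 below, with a median of 0.052. For 4 of them, 33.3% against 23.5% of all genes, the groups did not overlap. Of these, 3 had all miR-200 values below (12.1% of all genes) and 1, Cflar, had them above (11.4%). Cflar differed by 0.65 ± 0.32 (adjusted p = 0.439). Fas, the receptor of Fas ligand, came closest of all 64 genes to the threshold. It read 4.11, 3.73 and 3.77 on miR-200 A, B and C, against 5.06, 5.74 and 5.18 on control A, B and C. All miR-200 values were lower and under the gauge, and the control mean of 5.33 was barely above it, so the difference of -1.46 ± 0.23 rests on dim signals (adjusted p = 0.0782). Tnfrsf1a, the main receptor of tumour necrosis factor, was brighter and as clearly separated, with 10.45, 10.38 and 10.32 on miR-200 A, B and C, against 10.87, 10.79 and 10.87 on control A, B and C. Its difference was -0.46 ± 0.12 (adjusted p = 0.189). The death ligand gene Tnfsf10 differed by -0.24 ± 0.12 (adjusted p = 0.425).

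Of 9 NF-kB genes, 0 passed. For 2 of them, 22.2%, the groups did not overlap, which is near the 23.5% of all genes. Both had all miR-200 values above, where 11.4% of all genes did. Ikbkb, a kinase that releases NF-kB, read 9.54, 9.59 and 9.58 on miR-200 A, B and C, against 9.05, 9.13 and 9.04 on control A, B and C, a difference of 0.49 ± 0.11 (adjusted p = 0.156). The NF-kB subunit gene Rela differed by 0.35 ± 0.12 (adjusted p = 0.302), and Tnfaip3, an NF-kB target that damps the pathway, by 0.46 ± 0.23 (adjusted p = 0.444). Birc3 is itself a known NF-kB target, and a link to these values was not tested.

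The further genes of the Bcl2 family were 2 survival genes, 2 pore formers and 10 BH3-only or BH3-like genes, of which 0 passed. The pore former gene Bok read 8.23, 9.95 and 10.04 on miR-200 A, B and C, against 10.87, 9.23 and 10.83 on control A, B and C. Within each group the array that stands apart was the lowest, and the difference was -0.90 ± 0.69 (adjusted p = 0.622), or -0.86 without both arrays (adjusted p = 0.102). Bak1, the other pore former measured, differed by 0.04 ± 0.45. The BH3-only gene Bmf read 8.19, 5.08 and 5.40 on miR-200 A, B and C, against 7.83, 8.33 and 7.31 on control A, B and C. As for Birc3, miR-200 A sat with the control arrays, and the difference of -1.60 ± 0.88 (adjusted p = 0.484) was -2.33 without both arrays (adjusted p = 0.0967). Pmaip1, which encodes Noxa, was highest on miR-200 A at 11.34 and differed by 0.59 ± 0.61, or by 0.27 without both arrays. Bcl2l12 differed by -0.39 ± 0.32. Of the survival genes, Bcl2l2 differed by 0.44 ± 0.23 (adjusted p = 0.462), and Bcl2l10 was under the gauge in both groups.

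Downstream, 11 genes of the apoptosome and caspases, 4 antagonists of the inhibitors and 6 further inhibitors were measured, and 0 passed. The initiator caspase gene Casp9 differed by -0.59 ± 0.25 (adjusted p = 0.374), Casp8 by -0.31 ± 0.16 and the nuclease gene Dffb by 0.23 ± 0.15. Diablo, whose product Smac displaces inhibitors from caspases, differed by -0.48 ± 0.20 without overlap (adjusted p = 0.380). Xaf1 differed by -0.27 ± 0.25, with overlap. Septin4 differed by -1.16 ± 0.95, but its miR-200 mean was under the gauge and control B alone was high, at 7.63, and without both arrays the difference was -0.15. The differences of Naip5, Naip2 and Naip6, members of the NLR immune sensor family, were -0.43, -0.21 and -0.02, and Naip5 was under the gauge in both groups. Of 8 regulators of BH3-only proteins, Huwe1, a ligase for Mcl-1, differed by 0.19 ± 0.15 and Fbxw7, another, by 0.19 ± 0.21.

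Birc5, chosen after its values were seen, shows how far miR-200 A and control B departed. It encodes survivin, an inhibitor of apoptosis family member that dividing cells need. It read 7.10, 11.98 and 11.84 on miR-200 A, B and C, against 12.00, 7.21 and 11.96 on control A, B and C. The dividing-cell genes moved with it on the same arrays, and the group difference was -0.08 ± 1.92 (adjusted p = 0.995).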

How the data were processed

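Biotin-labelled cRNA from 3 miR-200 and 3 control vector cultures of 344SQ cells was hybridized to Affymetrix mouse arrays, per the labels. The values used are log2 signals per probe set as deposited by the authors. How probe signals were summarised and scaled: not given in the sources used here. In the labels the array is the 430A 2.0 design, but the table has 45101 probe sets of the larger design of that family. The base of 2 was inferred: for 97.9% of the values the antilog is a number with 2 decimals (tolerance 0.001).

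Arrays were quantile normalized and 64 control probe sets left out. Platform annotation, with symbols updated by gene number to RefSeq (GRCm38.p6), gave 34945 probe sets with 1 symbol (34741 of them matched), 932 with several and 9160 with none. limma 3.58.1 in R 4.3.3 (lmFit, eBayes, two-sided, no further term, tested on simulated data) compared the groups, with Benjamini-Hochberg adjustment over 45037 probe sets and a threshold of 0.05. The brightest probe set stands for a gene. The members and all gene lists were chosen with earlier results of these data known. Named genes are all members, up to 3 further genes per list with the smallest p, and the 3 most correlated genes for Bcl2, Xiap and the member with the largest difference. Cflar and Birc5 were added with their values known. Replicate letters were not treated as pairs, because the labels state no shared batch for a letter. Over the brighter 60% of probe sets, same-letter deviations from the group means had correlations of -0.58 (A), -0.67 (B) and 0.43 (C). For control B with miR-200 A the correlation was 0.71. These arrays stand apart under different letters, so the correlations cannot decide whether the letters are pairs.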

Additional observations from a re-analysis of the deposited data

How the results depend on the processing

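Over 15 settings, 515 values of the member probe sets were recomputed. Of these, 489 kept their direction and side of the threshold, 6 gained a call and 20 changed sign, all 20 without a call. The members were called in a single setting with all arrays, the term for miR-200 A and control B without the dimmest 40% (5 probe sets, 1 gene), and 1 (Birc3) was called without miR-200 A; without 1 array the count ranged from 0 to 1 for probe sets and for genes. Averaging the probe sets of each gene called 0 members in limma. Pathway genes called numbered 1 with array weights (Fas), 2 with the term (Fas and Bok) and 5 with the term without the dimmest 40% (Bok, Tnfrsf1a, Tnfrsf1b, Diablo and Ikbkb). On the whole array the 335 calls became 923 without the dimmest 40%, 951 with the variance trend, 1291 with array weights, 103 without both arrays, 946 with the term, 4606 with the term without the dimmest 40%, and with 1 array left out ranged from 32 (control A) to 328 (miR-200 A), with 139 for control B, 57 for control C, 40 for miR-200 B and 54 for miR-200 C. With the replicate block 0 passed in limma, against 4280 at an unadjusted p under 0.05, and 0 members, against 4. Sign changes: Mcl1 1448503_at was 0.0079 with array weights, 0.052 without both arrays and -0.096 to 0.050 without 1 array. Xiap 1450232_at was -0.012 centred on array medians (-0.019 to 0.38 without 1 array), 1450231_a_at 0.0096 as deposited (-0.17 to 0.083), 1426636_a_at -0.13 without both arrays (-0.041 to 0.97) and 1456088_at -0.29 to 0.10. Birc3 1425223_at was 0.032 as deposited (-0.45 to 0.89). Without 1 array, Bcl2l1 1426191_a_at ranged from -0.18 to 0.35, Bid 1447873_x_at from -0.023 to 0.30, Bad 1416583_at from -0.33 to 0.038 and Birc2 1418854_at from -0.18 to 0.0095. The cause was not tested. Signals under the gauge in both groups limit 3 member probe sets, and 1421394_a_at and 1450231_a_at of Xiap lay close to it.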
